A study of Mus musculus with 6 samples.

Results

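The 10 genes described here encode the machinery with which cells display peptides on MHC molecules: the class I heavy chains H2-K1 and H2-D1, their light chain B2m, the loading factors Tap1, Tap2 and Tapbp, the class I coactivator Nlrc5, and the class II genes Cd74, H2-Aa and H2-Ab1. They were found by gene symbol, and all 10 were among the 15553 genes listed with values. No genotype difference of any of the 10 passed the test, and 0 of all 13179 genes tested passed it. H2-K1 was the one gene of the 10 whose 3 Yy1 knockout libraries lay below the 3 wild-type libraries (mean ratio 0.839). Of all genes tested, 6.87% showed this pattern.

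RNA sequencing was carried out on hematopoietic stem and progenitor cells from bone marrow of C57BL/6 mice aged 6 to 8 weeks. The 3 Yy1 knockout libraries came from mice labelled Yy1f/f;Mx1-Cre, in which loxP sites flank Yy1, the gene of a zinc-finger transcription factor. The 3 wild-type libraries came from mice labelled Mx1-Cre. Mx1-Cre is a recombinase under an interferon-inducible promoter and was carried by both genotypes. Class I genes are themselves interferon-inducible, and the labels do not say how or when Cre was induced. Cells were sorted by lineage markers, Sca1, c-Kit, CD48 and CD150. The protocol names gates with and without CD150, whereas the sample labels name CD150+ cells alone, so which gate a library holds is not known. Nothing in the labels ties a library to its own mouse, so the spread between libraries may be partly technical.

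Depth, estimated as reads recovered over the listed genes, was 19473175 to 21757040 in Yy1 knockout and 15102983 to 18460012 in wild type (exact permutation p = 0.1, two-sided, the smallest that 3 against 3 allows). The library sizes inferred from the spacing of the values were smaller, at 17402756 to 19535460 in knockout and 12920190 to 16112105 in wild type. These depths are therefore rough, and the cause of the mismatch was not tested. Yy1 itself stood at 36.2, 16.6 and 28.5 RPKM (reads scaled to gene length and library size) in the libraries labelled knockout replicates 1 to 3 and at 31.6, 42.3 and 52.1 RPKM in wild type. The library labelled knockout replicate 1 lay inside the wild-type range. Yy1 had a log2 fold change of -0.66 (SE 0.32, limma adjusted p = 0.680), a value of -0.35 with knockout replicate 2 left out and of -0.90 with knockout replicate 1 left out. The values cover the whole gene, deleted part or not. Wild type replicate 3 stood apart from the other 5 libraries on the first principal component, which held 34.6% of the variance.

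Among stem and progenitor markers, Kit, the receptor gene used in the sort, had 76.6 to 82.6 RPKM in knockout and 112 to 139.9 RPKM in wild type. Hlf, a transcription factor gene of stem cells, had 86.7 to 93.4 RPKM in knockout and 126 to 144 RPKM in wild type. Neither overlapped between genotypes. The limma adjusted p was 0.429 for both, whereas the authors' deposited table called both lower in knockout, with an adjusted p of 0.0118 for Kit and 0.0384 for Hlf. These 2 were named after their values were seen. Of the 10 stem and progenitor markers, 4 were lower in knockout without overlap, against 6.87% of all genes tested. None was higher without overlap, against 7.63%. Their log2 fold changes were below 0 in 9 and above 0 in 1. The latter was Slamf1, the gene of the sort marker CD150, likewise named after its values were seen. It had 3.77, 3.89 and 5.96 RPKM in knockout and 2.21, 2.88 and 3.90 RPKM in wild type, with overlap (log2 fold change 0.53). Of 10 B cell markers 1 was listed, Cd79b, at 9.15 to 21.4 RPKM in knockout and 13.3 to 28.6 RPKM in wild type. Of 10 dendritic cell markers 2 were listed, with sums of 6.96 to 9.31 RPKM in knockout and 6.97 to 10.5 RPKM in wild type, nearly all of it Tcf4. Monocyte and macrophage markers, 5 of 10 listed, summed to 70.5 to 106 RPKM in knockout and 80.1 to 121 RPKM in wild type, most of it the lysozyme gene Lyz2, while the monocyte receptor gene Ccr2 was listed at 0 in 4 of 6 libraries. The 4 listed T and NK cell markers, of 10, summed to 7.81 to 11.7 RPKM in knockout and 11.5 to 20.2 RPKM in wild type, led by Nkg7. The part of these marker differences in the results below was not tested.

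Class I molecules consist of a heavy chain and beta-2-microglobulin, and are shown on nearly all nucleated cells. Peptides cut by the proteasome are pumped into the endoplasmic reticulum by the TAP1 and TAP2 transporter and loaded with the help of tapasin, the Tapbp product. Class II molecules, pairs of an alpha and a beta chain that are guarded by the invariant chain CD74 until peptide is loaded, are mainly made by B cells, dendritic cells and macrophages. The promoters of both classes carry a shared module in which the X box is bound by RFX and CREB-family factors and the Y box by NF-Y. A pair of related coactivators docks on it: NLRC5 for class I and CIITA for class II genes.

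The promoter windows of the heavy chain genes, the light chain gene and a class II gene are shown because letters of that module were found in them. They are RefSeq windows on GRCm38.p6 of 300 bases, from 250 before to 50 after the annotated start site, given in the direction of transcription. Capitals mark the Y box CCAAT or its reverse complement ATTGG, the X2 core TGACG or its reverse complement CGTCA, and the interferon response motif GAAANNGAA, wherever they occur on either strand. The windows are chr17:34000298-34000597 (minus strand) for H2-K1, chr17:35262844-35263143 (plus strand) for H2-D1, chr2:122147437-122147736 (plus strand) for B2m and chr17:34287774-34288073 (minus strand) for H2-Aa.

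H2-K1: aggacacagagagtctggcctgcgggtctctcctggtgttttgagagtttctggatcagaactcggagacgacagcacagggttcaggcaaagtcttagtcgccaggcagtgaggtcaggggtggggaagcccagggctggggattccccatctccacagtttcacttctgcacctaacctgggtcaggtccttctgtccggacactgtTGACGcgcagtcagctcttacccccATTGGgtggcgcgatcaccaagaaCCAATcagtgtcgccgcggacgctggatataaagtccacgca
H2-D1: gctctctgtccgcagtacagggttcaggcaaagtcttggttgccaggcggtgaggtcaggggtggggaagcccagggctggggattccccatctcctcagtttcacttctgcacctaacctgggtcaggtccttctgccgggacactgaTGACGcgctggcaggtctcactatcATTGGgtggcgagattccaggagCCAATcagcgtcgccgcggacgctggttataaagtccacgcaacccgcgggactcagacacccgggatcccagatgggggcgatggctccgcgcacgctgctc
B2m: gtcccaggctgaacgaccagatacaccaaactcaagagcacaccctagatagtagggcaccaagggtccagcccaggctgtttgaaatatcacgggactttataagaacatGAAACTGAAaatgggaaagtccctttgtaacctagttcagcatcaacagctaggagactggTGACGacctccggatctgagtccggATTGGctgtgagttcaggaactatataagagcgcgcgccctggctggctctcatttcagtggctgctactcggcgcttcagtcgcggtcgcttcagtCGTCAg
H2-Aa: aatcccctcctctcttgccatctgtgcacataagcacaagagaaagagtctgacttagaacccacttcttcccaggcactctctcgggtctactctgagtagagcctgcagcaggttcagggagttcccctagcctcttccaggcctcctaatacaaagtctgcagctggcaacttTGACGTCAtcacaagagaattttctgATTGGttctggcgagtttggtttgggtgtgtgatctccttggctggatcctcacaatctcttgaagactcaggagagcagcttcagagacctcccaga

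In all 4 windows TGACG was followed by ATTGG, with a distance between their first bases of 25 bases in H2-K1, H2-D1 and B2m and 26 in H2-Aa. This spacing was chosen after the windows had been read. It occurred in 31 of 32851 promoter windows of RefSeq genes (0.0944%). The CREB-type palindrome TGACGTCA in H2-Aa is a pair of overlapping X2 cores, 1 on each strand. B2m alone held GAAANNGAA, the form of the interferon response motif searched, as GAAACTGAA. Of all windows, 8.56% held this form, and other forms of it were not searched. Windows were also found for Tap1 and Tapbp, 6 members in all, with 7 windows because H2-K1 has 2 start sites. Every one of the 6 genes had a Y box (37.4% of all windows) and 5 had an X2 core (20.8%), but Tap1 and Tapbp lacked the spaced pair. The YY1 core motif GCCATNTT or its reverse complement AANATGGC, held by 6.05% of all windows, had no match in the 7, and neither had the interferon-gamma-type motif TTCNNNGAA (8.30%). A match or its lack describes these letters only. Tap2, Nlrc5, Cd74 and H2-Ab1 had no window here.

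Levels of the 10 genes are compared here in RPKM, which accounts for gene length. B2m averaged 1002 RPKM over the 6 libraries, the 26th highest of all listed genes, H2-K1 484 RPKM and H2-D1 245 RPKM. These 3 kept their order without overlap in the 6 libraries. Tapbp (34.0 RPKM), Tap2 (29.3), Tap1 (21.1) and Nlrc5 (21.1) followed, and then H2-Aa (12.9), Cd74 (12.6) and H2-Ab1 (9.84), and within the last 7 each neighbour in this order overlapped the next. Together B2m, H2-K1 and H2-D1 took 0.238%, 0.232% and 0.262% of the recovered reads in knockout libraries and 0.239%, 0.257% and 0.306% in wild-type libraries.

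**Figure D1:**
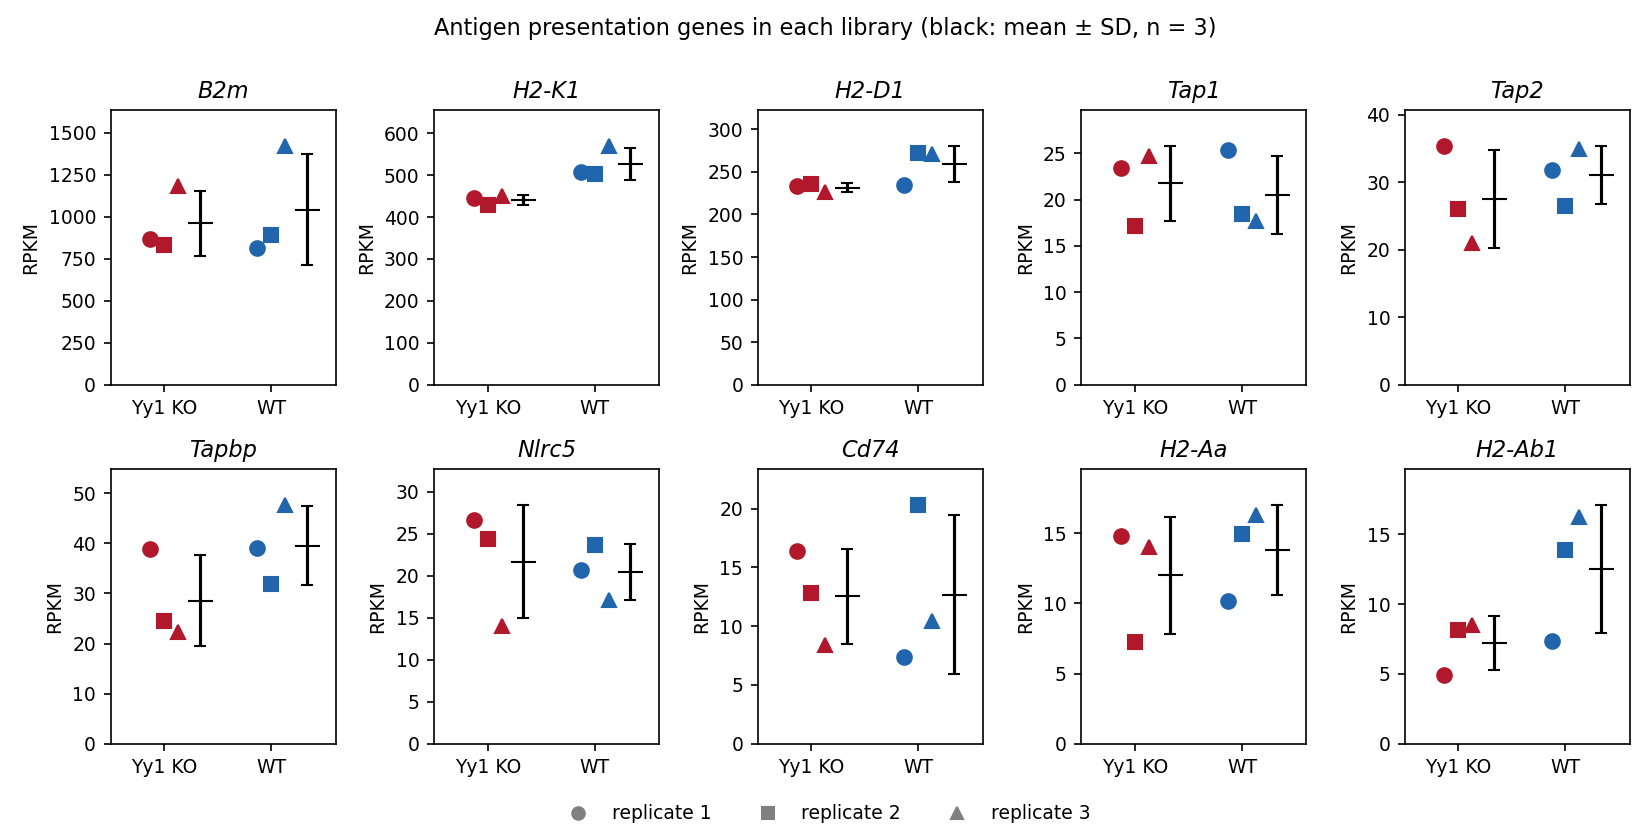
RPKM of each of the 10 genes in the 3 Yy1 knockout libraries (red, left) and the 3 wild-type libraries (blue, right), with symbols for the replicate number and the mean ± SD in black. H2-K1 is the one panel in which the genotypes do not overlap, at 428 to 450.0 RPKM in knockout and 502 to 569 RPKM in wild type.

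Among the heavy chains, H2-K1 (ENSMUSG00000061232, chromosome 17: 33996017 to 34000347 in GENCODE M21, GRCm38), which encodes the classical K molecule, stood at 446, 428 and 450.0 RPKM in knockout and at 507, 502 and 569 RPKM in wild type. All 3 knockout values were lower than all 3 wild-type values. The means were 442 ± 11.7 RPKM in knockout and 526 ± 37.4 RPKM in wild type (SD, n = 3 each, as for all later means). Fitted on log2(RPKM + 0.5), its log2 fold change was -0.25 with a 95% confidence interval of -0.63 to 0.13, and limma gave a Benjamini-Hochberg adjusted p of 0.752. In the authors' deposited table it was likewise -0.25, with a p of 0.0262 and an adjusted p of 0.594. Under quantile normalization, which forces 1 distribution on all libraries, the fold change was -0.13 and the genotypes overlapped.

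H2-D1 (ENSMUSG00000073411, chromosome 17: 35262730 to 35267499), the classical D molecule, had 233, 236 and 226 RPKM in knockout and 235, 272 and 271 RPKM in wild type. Knockout replicate 2 lay just above wild type replicate 1, so the genotypes overlapped. Means were 232 ± 5.23 RPKM in knockout and 259 ± 21.3 RPKM in wild type, at a log2 fold change of -0.16 (95% confidence interval -0.51 to 0.20, adjusted p = 0.834 in limma). With quantile-normalized values it was -0.06. Within each library, H2-K1 was 1.92, 1.81 and 1.99 times H2-D1 in knockout and 2.16, 1.85 and 2.10 times in wild type, which overlapped. The coding sequences of both genes were 88.3% identical. Of all 50-base windows in their annotated transcripts, 9.63% of those of H2-K1 and 10.65% of those of H2-D1 were also found in another listed class I heavy chain gene. The sources do not say how the authors' counting treated reads that fit several genes, so both values may include reads of the H2-Q genes and the reverse.

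B2m (ENSMUSG00000060802, chromosome 2: 122147686 to 122153083) had 868, 832 and 1183 RPKM in knockout and 812.5, 894 and 1422 RPKM in wild type. The third replicate was the highest in both genotypes, and the ranges overlapped broadly. Knockout averaged 961 ± 193 RPKM and wild type 1043 ± 331 RPKM (log2 fold change -0.09, 95% confidence interval -0.74 to 0.56, limma adjusted p = 0.953). Its log2 fold change was 0.15 when wild type replicate 3 was left out, 0.0036 when knockout replicate 2 was, and 0.09 with quantile-normalized values. B2m was 1.28, 1.25 and 1.75 times the sum of H2-K1 and H2-D1 in knockout and 1.09, 1.16 and 1.69 times in wild type.

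The transporter genes lie near each other in the class II region of chromosome 17. Tap1 (ENSMUSG00000037321, 34187553 to 34197225) had 23.4, 17.1 and 24.7 RPKM in knockout and 25.4, 18.4 and 17.6 RPKM in wild type. Tap2 (ENSMUSG00000024339, 34203527 to 34216321) had 35.3, 26 and 21.0 RPKM in knockout and 31.7, 26.4 and 35.0 RPKM in wild type. Both overlapped between genotypes, and knockout replicate 3 held the lowest Tap2 value and the second highest Tap1 value. Tap1 had a log2 fold change of 0.09 (95% confidence interval -0.49 to 0.66, limma adjusted p = 0.950) and Tap2 one of -0.20 (-0.77 to 0.37, limma adjusted p = 0.872). The Tap1 fold change was -0.01 without replicate 3 of either genotype. That of Tap2 was -0.39 without knockout replicate 1, -0.31 without wild type replicate 2, -0.11 without wild type replicate 3 and, with knockout replicate 3 left out, -0.02. Of the exonic bases of Tap1, 3.87% overlap the immunoproteasome gene Psmb9 on the other strand, and 14.1% of those of Tap2 overlap Gm15821, likewise on the other strand, so without a known strand setting their reads cannot be told apart.

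Tapbp (ENSMUSG00000024308, chromosome 17: 33915899 to 33929292), the tapasin gene, stood at 38.9, 24.6 and 22.2 RPKM in knockout and at 39.1, 31.8 and 47.6 RPKM in wild type. Knockout replicates 2 and 3 were below every wild-type library, and the library labelled knockout replicate 1 was at the level of wild type replicate 1. Means were 28.6 ± 9.01 RPKM in knockout and 39.5 ± 7.92 RPKM in wild type, and the log2 fold change of -0.49 (95% confidence interval -1.11 to 0.14) had a limma adjusted p of 0.723. Without knockout replicate 1 it was -0.73, and without knockout replicate 3 it was -0.33. Exons of Tapbp share 24.9% of their bases with Gm19412 on the other strand and 4.11% with Zbtb22, a listed gene, on the same strand.

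Nlrc5 (ENSMUSG00000074151, chromosome 8: 94434356 to 94527272), the coactivator of class I promoters, had 26.7, 24.3 and 14.0 RPKM in knockout and 20.7, 23.7 and 17.1 RPKM in wild type. The knockout libraries held both the highest and the lowest value. The log2 fold change was 0.04 (95% confidence interval -0.64 to 0.72, limma adjusted p = 0.982), and ran from -0.13 without knockout replicate 1 to 0.32 without knockout replicate 3, below 0 also without knockout replicate 2 and wild type replicate 3. Over the 6 libraries, as a description only, Pearson's r of Nlrc5 was -0.77 with B2m, -0.30 with H2-K1 and 0.07 with H2-D1, the genes it is known to activate.

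The class II genes were low. Cd74 (ENSMUSG00000024610), the invariant chain gene, had 16.4, 12.8 and 8.39 RPKM in knockout and 7.36, 20.3 and 10.4 RPKM in wild type, on 275 to 480 and 160 to 549 estimated reads. The wild-type libraries enclosed all knockout values, and the means were close, at 12.5 ± 4.03 RPKM in knockout and 12.7 ± 6.76 RPKM in wild type. The log2 fold change was 0.06 (95% confidence interval -0.93 to 1.04, limma adjusted p = 0.983) and -0.02 in the authors' deposited table. Its sign depended on single libraries, from -0.26 without wild type replicate 1 to 0.45 without wild type replicate 2, and was below 0 also without knockout replicate 1 and wild type replicate 3.

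H2-Aa (ENSMUSG00000036594, chromosome 17: 34282744 to 34287823), which encodes the alpha chain of the I-A molecule, had 14.8, 7.23 and 14.0 RPKM in knockout and 10.2, 14.9 and 16.3 RPKM in wild type. Only knockout replicate 2 was below the wild-type range. Its log2 fold change was -0.23 (95% confidence interval -1.05 to 0.59, limma adjusted p = 0.904), and without that library it was 0.09. Without one of the others it ran from -0.43 (wild type replicate 1) to -0.10 (wild type replicate 3).

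H2-Ab1 (ENSMUSG00000073421, chromosome 17: 34257689 to 34269419), which encodes the I-A beta chain, stood at 4.95, 8.14 and 8.47 RPKM in knockout and at 7.38, 13.9 and 16.2 RPKM in wild type. Wild type replicate 1 lay among the knockout values, and the other 2 wild-type libraries above them. Means were 7.19 ± 1.94 RPKM in knockout and 12.5 ± 4.59 RPKM in wild type. The log2 fold change of -0.72 was the most negative of the 10 genes, with a 95% confidence interval of -1.62 to 0.18 and a limma adjusted p of 0.719. It was -0.49 without knockout replicate 1 and -1.05 without wild type replicate 1. In bulk RNA, fewer cells that express a gene and less RNA per cell cannot be told apart. The B cell marker Cd79b and the dendritic cell and macrophage sums given above exceeded every knockout library in wild type replicate 3 alone. The T and NK marker sum did so in wild type replicates 2 and 3. Those cells are not among the main class II producers named above. Most of the macrophage sum was Lyz2. The other listed macrophage markers, Cd68, Ly6c2, Ccr2 and Fcgr1, had higher means in knockout, but each overlapped between genotypes. Ly6c2, Ccr2 and Fcgr1 were below the filter and were not tested. Cd68, named after its values were seen, had 2.06, 5.82 and 9.49 RPKM in knockout and 0.0616, 2.72 and 0 RPKM in wild type. The part of these markers in the class II levels was not tested.

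**Figure D2:**
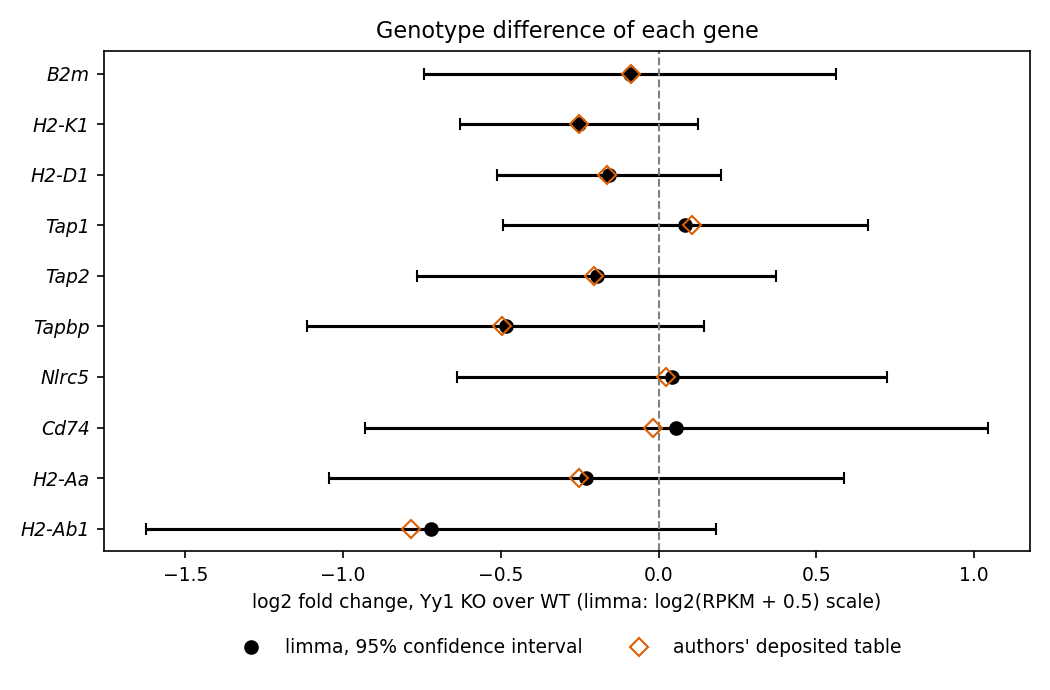
Log2 fold change of Yy1 knockout over wild type for each gene, as black points with 95% confidence intervals from limma and as open diamonds from the authors' deposited table. All 10 intervals include 0, and the points run from -0.72 for H2-Ab1 to 0.09 for Tap1.

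Across the 10 genes, 7 log2 fold changes were below 0 and 3 above, with a median of -0.18, where all 13179 genes tested had a median of 0.02 and 48.1% below 0. The number past an adjusted p of 0.05 in limma was 0 of 10, as it was over all genes tested (0%). At an unadjusted p under 0.05 the count was 0 of 10, against 7.79% of all genes. In a limma-voom fit of recovered reads 0 of 10 were called, against 0.061% of all genes, and the authors' deposited table called 0 of 10, against 0.154%. The groups did not overlap in 1 of 10 genes, H2-K1, with knockout below wild type, a pattern that 6.87% of all genes tested showed, and 7.63% of all genes showed the opposite one. The confidence intervals given for each gene leave room for differences, and equal levels were not shown.

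The genes did not vary as 1 block between libraries. Tap2 and Tapbp ran closely together over the 6 libraries (Pearson's r = 0.93), H2-D1 ran with H2-Ab1 (0.86) and H2-K1 with H2-D1 (0.75), whereas H2-D1 and Tap1 ran in opposite directions (-0.69). These values share library and depth and are a description over 6 points. The plot of deviations from the wild-type mean shows the same: knockout replicate 3 had low Tap2, Tapbp and Nlrc5 beside high B2m and Tap1. H2-K1 and H2-D1 varied least, with coefficients of variation of 2.64% and 2.26% in knockout and 7.10% and 8.22% in wild type. The widest spread was that of H2-Aa in knockout, at 34.6%, and of Cd74 in wild type, at 53.3%.

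**Figure D3:**
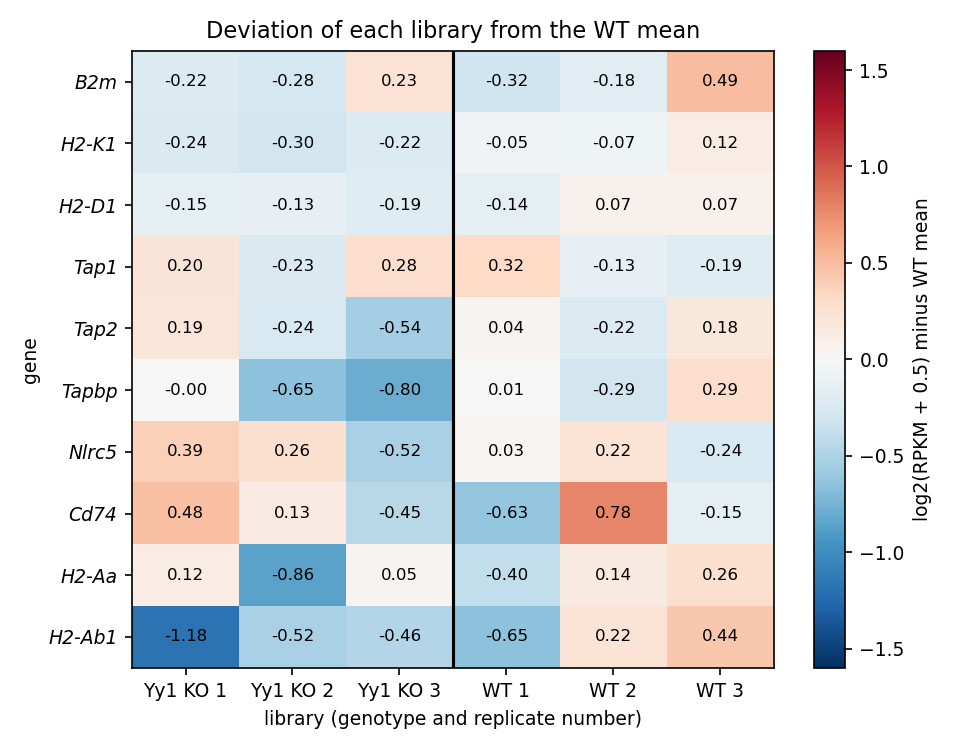
Deviation of every library from the wild-type mean of each gene, in log2(RPKM + 0.5), with the 3 Yy1 knockout libraries on the left and the 3 wild-type libraries on the right, red above and blue below that mean. H2-K1 is below it in all knockout libraries (-0.24, -0.30 and -0.22), as are H2-D1, Tapbp and H2-Ab1, whereas the other 6 rows hold both colours on the left.

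The genes whose pattern over the 6 libraries was most like the mean of the 7 class I genes were Ap1m1, a subunit gene of the AP-1 clathrin adaptor, Minpp1, an inositol polyphosphate phosphatase gene, Wbp1l, Gpr160 and Akt1s1, with Pearson's r between 0.982 and 0.993. For the mean of the 3 class II genes they were Mmab, a cobalamin enzyme gene, Tmem5, Lancl3, Isoc1 and Gm8242, with r between 0.964 and 0.993. Among all genes tested, for the class I mean, 114 genes had an r above 0.9, and for the class II mean 28 had.

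The rest of the pathway was described from 7 gene lists, none of whose genes passed the adjusted threshold in limma. Of 21 class I heavy chain genes 16 were measured. They had a median of -0.25 in log2 fold change, and 11 of them lay below 0. Each setting that left out a library gave a median nearer to 0, from -0.23 to -0.16, the last without knockout replicate 1. H2-Q7, a non-classical chain, had the smallest p, at 39.9 ± 7.34 RPKM in knockout and 50.1 ± 5.56 RPKM in wild type. H2-T24 followed on the other side of 0, at 6.45 ± 1.10 RPKM in knockout and 3.97 ± 1.69 RPKM in wild type. The most abundant non-classical chain, H2-Q6, named after its values were seen, had 182, 202 and 160 RPKM in knockout and 198, 260 and 191.5 RPKM in wild type. Its genotypes overlapped. Of the 50-base windows of H2-Q6, 24.5% were shared with other heavy chain genes, and of those of H2-Q7 19.6%, so their reads are uncertain.

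The light chain and peptide loading genes had a median of -0.03 over 9 genes, 6 of them below 0, and without single libraries the median ran from -0.09 (wild type replicate 3) to 0.02 (wild type replicate 2), above 0 also without knockout replicate 2. Calr, the gene of the chaperone calreticulin, had 201, 193 and 179 RPKM in knockout and 216, 218 and 241 RPKM in wild type, without overlap (log2 fold change -0.24, SE 0.15, limma adjusted p = 0.752). The immunoproteasome has interferon-inducible subunits that cut peptides for class I. Its list, which also holds proteasome activator genes, had a median of 0.00 over 7 genes. This median ran from -0.19 without wild type replicate 2 to 0.17 without knockout replicate 1. The subunit gene Psmb8 stood at 46.7, 46.7 and 50.8 RPKM in knockout and at 61.8, 50.9 and 51.4 RPKM in wild type, separate by a narrow margin. The proteasome activator gene Psme3 had 80.9, 75.7 and 74.8 RPKM in knockout and 65.7, 70.0 and 64.6 RPKM in wild type, and all knockout values were the higher ones (log2 fold change 0.21, SE 0.15, limma adjusted p = 0.785). Psme1, the most abundant of this list, averaged 114 ± 32.0 RPKM in knockout and 94.8 ± 20.3 RPKM in wild type.

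**Figure D4:**
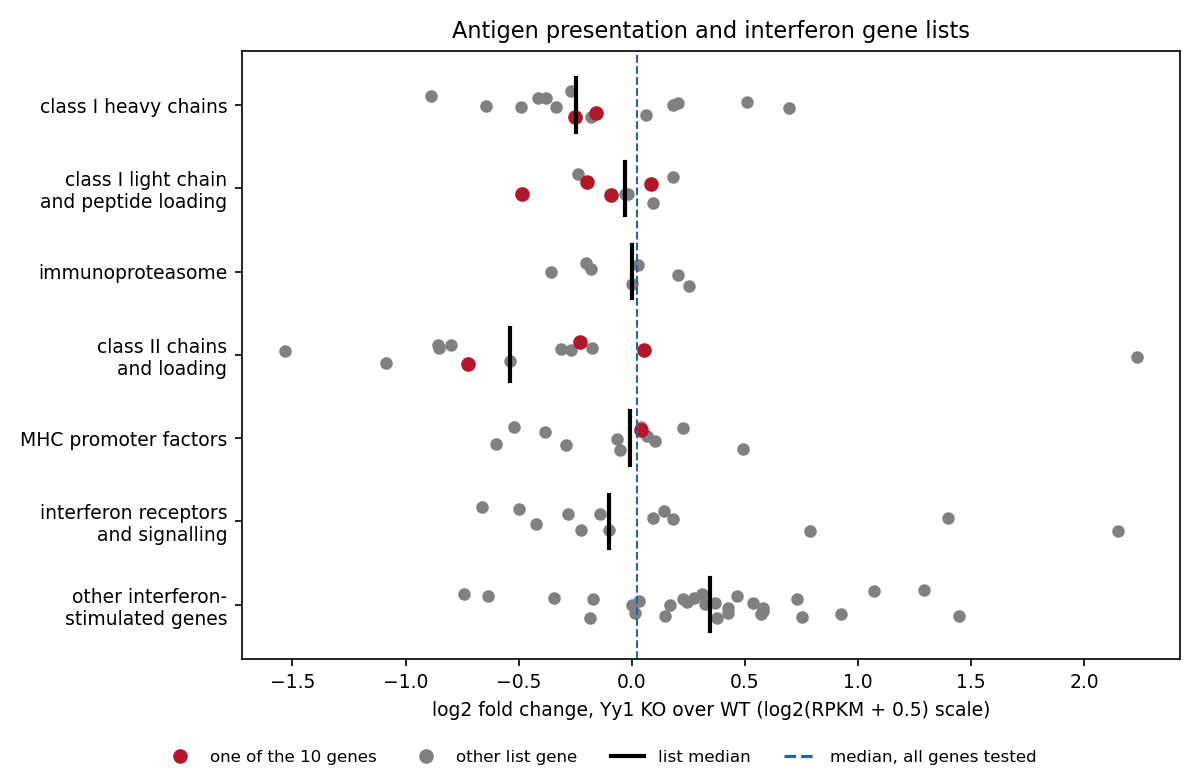
Log2 fold change of Yy1 knockout over wild type for the tested genes of the 7 gene lists, with the 10 genes in red, the others in grey, list medians as black bars and the median of all genes tested as a dashed line. Class II genes lie mostly left of it, with a list median of -0.54, and interferon-stimulated genes mostly right of it, with a list median of 0.35.

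Of 17 class II chain and loading genes 13 were measured. A total of 11 had a log2 fold change below 0, and the median of the list was -0.54. An unadjusted p under 0.05 was reached by 2 lower genes and 1 higher gene of the 13, against 7.79% of all genes tested, of which 403 were lower and 624 higher. Ctsl, a lysosomal protease gene, had 10.7, 17.2 and 15.7 RPKM in knockout and 38.0, 18.3 and 25.8 RPKM in wild type, without overlap (log2 fold change -0.86, SE 0.32, limma adjusted p = 0.606). The other lower gene, H2-Eb1, and H2-Oa were named after their values were seen. H2-Eb1 encodes the beta chain of I-E, a molecule that C57BL/6 mice do not assemble for want of its alpha chain, and stood at 15.6, 3.19 and 3.67 RPKM in knockout and at 20.8, 12 and 22.1 RPKM in wild type. Its knockout replicate 1 lay inside the wild-type range, and the log2 fold change was -1.53 (SE 0.58, limma adjusted p = 0.608).

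H2-Oa, part of the DO molecule that restrains class II loading, had 2.62, 2.31 and 1.05 RPKM in knockout and 4.36, 5.05 and 4.32 RPKM in wild type, without overlap (log2 fold change -1.09, SE 0.47, limma adjusted p = 0.640). The higher gene was Lgmn, a lysosomal protease gene, at 4.16, 1.43 and 4.69 RPKM in knockout and 0.0333, 1.18 and 0 RPKM in wild type, at levels where the fitted fold change depends on the pseudocount. H2-DMa, a chain of the peptide exchange factor DM, averaged 14.8 ± 5.44 RPKM in knockout and 23.1 ± 13.6 RPKM in wild type, with 38.7 RPKM in wild type replicate 3. Without knockout replicate 2 the list median was -0.82, and in the other settings that left out a library it ran from -0.66 to -0.42.

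Ciita, the class II coactivator, was at 0.241, 0.609 and 0.341 RPKM in knockout and at 1.06, 1.12 and 0.0129 RPKM in wild type, below the filter of 1 RPKM in 3 libraries, and so was not tested. The promoter factors, 12 of 14 tested, had a median of -0.01, which ran from -0.18 without wild type replicate 1 to 0.09 without wild type replicate 2. Rfx5, a subunit gene of the X box factor, had 12.7, 17.8 and 20.9 RPKM in knockout and 27.2, 23.4 and 22.5 RPKM in wild type. All knockout values were the lower ones, at a log2 fold change of -0.52 (SE 0.25, limma adjusted p = 0.667). Irf1, an interferon-induced activator gene, had 11.7, 22 and 12.4 RPKM in knockout and 26.3, 21.4 and 20.6 RPKM in wild type, with overlap (log2 fold change -0.60, SE 0.29, limma adjusted p = 0.679). The abundant factors Irf2 (59.2 ± 13.1 RPKM in knockout, 56.7 ± 5.49 RPKM in wild type) and Nfya (41.0 ± 3.72 RPKM in knockout, 38.1 ± 2.06 RPKM in wild type) overlapped between genotypes.

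Interferon receptor and signalling genes had a median of -0.10 over 13 genes, which ran from -0.24 without wild type replicate 3 to 0.05 without knockout replicate 3. The kinase gene Jak1 stood at 32.4, 36.9 and 32.7 RPKM in knockout and at 41.6, 43.9 and 38.5 RPKM in wild type, and the receptor gene Ifngr1 at 32.2, 34.4 and 28.2 RPKM in knockout and at 37.8, 36.9 and 36.0 RPKM in wild type. Neither overlapped between genotypes, and the limma adjusted p was 0.744 and 0.797. These were the 2 of 13 genes lower without overlap, a pattern of 6.87% of all genes tested. Socs1 was the 1 gene higher without overlap, against 7.63%. The inhibitor genes Socs1 (5.37, 1.64 and 2.94 RPKM in knockout, 0, 1.48 and 0 RPKM in wild type) and Usp18 (4.0, 8.91 and 12.8 RPKM in knockout, 3.02, 1.25 and 4.46 RPKM in wild type) had the smallest p of this list, with a limma adjusted p of 0.601 and 0.631.

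Of 30 other interferon-stimulated genes, 25 had a log2 fold change above 0, against 6842 of all 13179 genes tested. The list median was 0.35, and ran from 0.20 without wild type replicate 1 to 0.43 without knockout replicate 1. Knockout was higher without overlap in 5 of 30, against 7.63% of all genes tested, and lower without overlap in 1 of 30, against 6.87%. Ifit1, an antiviral RNA-binding protein gene, had 12.1, 13.7 and 14.5 RPKM in knockout and 4.17, 4.72 and 7.0 RPKM in wild type, without overlap (log2 fold change 1.29, SE 0.31, limma adjusted p = 0.429). Irf7, a transcription factor gene of the interferon response, had 15.8, 12.1 and 17.4 RPKM in knockout and 6.71, 8.20 and 2.37 RPKM in wild type, also apart (log2 fold change 1.45, SE 0.45, limma adjusted p = 0.557). The most abundant members, Ifitm3 (239 ± 86.7 RPKM in knockout, 197 ± 89.1 RPKM in wild type) and Ifitm1 (140 ± 7.66 RPKM in knockout, 140 ± 15.1 RPKM in wild type), overlapped.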

How the data were processed

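The deposited table gives 1 value per gene and library. The submitters' processing notes name mm10, Subread, featureCounts, edgeR and limma, without version or role. The header gives no unit, and the RPKM values that the authors deposited were recognised from the numbers: multiplied by exonic gene length (GENCODE M21), they were whole multiples of 1 step, within 0.02 reads in all 6 libraries, for 11106 of 15465 genes (71.8%). Recovered reads of the others, H2-K1, Tapbp, Nlrc5 and the class II genes included, are estimates. The library kit (Ovation RNA-Seq System V2) amplifies RNA, so reads are not independent molecules. The authors' log2 fold change, p-value and adjusted p-value columns are named per the file headers, and their test is not stated.

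Here, limma 3.58.1 (R 4.3.3, variance trend on, robust fitting off) was fitted to log2(RPKM + 0.5). A gene entered when 3 or more libraries reached 1 RPKM, which left 13179 genes. The model compared the genotypes, and p was adjusted over all these genes by the Benjamini-Hochberg method, at 0.05. Fold changes on this scale understate low genes. The fit was also run on simulated reads. These had the same variability setting for every gene, so that run does not show how the fit performs on these data. Alternatives were other pseudocounts, filters and scalings, no trend, a replicate block, limma-voom on recovered reads (trimmed-mean scaling) and each library left out. The genes and lists were chosen with earlier results of these data known. Named list genes are the 2 with the smallest p and the 2 most abundant of each list, and exceptions are stated. Motifs were searched on both strands, and coding sequences were aligned with Biopython 1.88. Some marker results are not reported here.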

Additional observations from a re-analysis of the deposited data

How the results depend on the processing

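None of the 10 genes passed in any of the 9 other settings or the 6 that left out a library, and the smallest limma adjusted p among them was 0.583. H2-K1, H2-D1, Tap2, Tapbp and H2-Ab1 had values below 0 in all 15, though Tap2 ran from -0.39 to -0.024 without single libraries and H2-D1 was -0.056 under quantile normalization. The sign of B2m turned under quantile normalization (0.091), and its values without single libraries ran from -0.25 to 0.15. Cd74 turned in limma-voom on recovered reads (-0.014) and ran from -0.26 to 0.45 without single libraries. Likewise, Tap1 ran from -0.014 to 0.25, Nlrc5 from -0.13 to 0.32 and H2-Aa from -0.43 to 0.086, and the cause was not tested. Over all genes, limma called 0 (1027 at an unadjusted p under 0.05), limma-voom 8, and limma without single libraries 0 to 1. The replicate block called 0 genes (1040 at an unadjusted p under 0.05). Same-numbered libraries correlated at 0.02 to 0.06 in their deviations, and each library but wild type replicate 1 correlated best with its own number. Correlations this weak cannot decide whether same-numbered libraries share more than a number. The edgeR test was not run, because reads were not whole for 28.2% of genes. Depth limits the class II genes most, with H2-Ab1 on 221 to 617 estimated reads a library.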
